A study of Mus musculus with 26 samples.

Results

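The genes described here are 40 inflammatory mediators, adhesion molecules and their central signalling genes, taken by symbol from the 40413 genes of a count table of the mouse left ventricle. They comprise 5 cytokines, 11 CC chemokines, 9 CXC or CX3C chemokines, 5 adhesion molecules, 3 receptors, 4 genes of the NF-kB pathway and 3 of the inflammasome. No measured value entered the rule that names them, but they were chosen with earlier results of these data known. Of the 40, 34 had enough reads to be tested. Counts came from 26 libraries of polyadenylated RNA, each from a separate mouse of the hypertensive inbred strain BPH/2J or the normotensive inbred strain BPN/3J. The mice, described as adult, received Cmpd17b, which activates formyl peptide receptors, at 50 mg/kg per day for 28 days, or vehicle for the same time. The groups were BPH/2J on Cmpd17b (BPH_Cmpd17b, 7 libraries, 6 of them used), BPH/2J on vehicle (BPH_vehicle, 7), BPN/3J on Cmpd17b (BPN_Cmpd17b, 5) and BPN/3J on vehicle (BPN_vehicle, 7). Inbred strains differ at many loci, so blood pressure and other strain differences cannot be told apart in a comparison of these strains.

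Inflammation recruits leukocytes into a tissue in a known order. Cytokines such as IL-1, TNF and IL-6 act on resident cells, which through the transcription factor NF-kB make chemokines and place selectins, ICAM and VCAM molecules on the endothelium. Chemokines then act on G protein-coupled receptors of passing leukocytes, and in the pressure-loaded heart this recruitment brings monocytes and T cells into the myocardium. Many chemokine genes lie in clusters, and several of those here are neighbours on mouse chromosome 11.

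Total counts in the 25 libraries used ran from 25476112 to 48648196, so that 3 counts, the limit that a count of 0 allows for counting error alone, stood for 0.0617 to 0.118 CPM (the read count scaled to a common library size). The library labelled BPH_Cmpd17b replicate 7 was left out because it looked like kidney: the cardiomyocyte gene Myh6 was at 12.4 CPM there, against 13440 to 23510 CPM in the others, and the kidney gene Umod was at 1927 CPM. Markers of the ventricular cardiomyocyte summed to between 34100 and 53800 CPM in the 25 libraries used, whereas the 8 kidney markers summed to between 0.754 and 156 CPM. A pair of the remaining libraries stood apart. BPN_vehicle replicate 7 was the highest of all 25 in 14 of the 34 tested genes and had 1270 CPM of blood endothelium markers, against 449 to 639 CPM in the other 24 libraries. BPH_Cmpd17b replicate 6 was the highest of its 6 libraries in 15 of the 34 genes, and the highest of all 25 in 7. It had 392 CPM of macrophage markers against 180 to 329 CPM elsewhere and 1350 CPM of fibroblast markers against 648 to 1030 CPM. Its atrial markers were at 2550 CPM against 78.5 to 1100 CPM. Calls of the 34 genes that change without these libraries are given with and without them. In whole tissue, fewer cells of a type and less RNA per cell cannot be told apart.

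Between the strains on vehicle, 6 of the 34 tested genes differed at an adjusted p under 0.05, or 17.6%, against 18.9% of all 15543 genes tested. The share was thus close to that of the transcriptome. The chemokines Ccl8 and Ccl11 and the inflammasome adaptor Pycard were higher in BPH_vehicle, 3 of 34 against 9.16% of all genes, and the chemokines Cxcl9 and Ccl6 and the endothelial adhesion molecule Icam2 were lower, 3 of 34 against 9.73%. Between the strains on Cmpd17b, 4 of the 34 genes differed, or 11.8%, against 14.1% of all genes. These 4 were Ccl8, Ccl11 and Pycard, higher in BPH_Cmpd17b (7.48% of all genes were), and Cxcl9, lower there (6.65% of all genes were). All 4 were among the 6 that differed on vehicle. Without BPH_Cmpd17b replicate 6, 33 of the genes were tested. The same 4 then differed on Cmpd17b, against 13% of all genes, and the same 6 on vehicle, against 20%. The pair of strain comparisons shares no mice but comes from the same fit. The median log2 difference of the 34 genes was -0.0307 on vehicle, against -0.000756 over all genes, and 0.0858 on Cmpd17b, against 0.00941. Differences are those of edgeR's quasi-likelihood fit with a term for batch, with p-values adjusted over all genes tested by the Benjamini-Hochberg method. They are BPH/2J minus BPN/3J on the log2 scale, with the standard error (SE) of the fit.

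**Figure D1:**
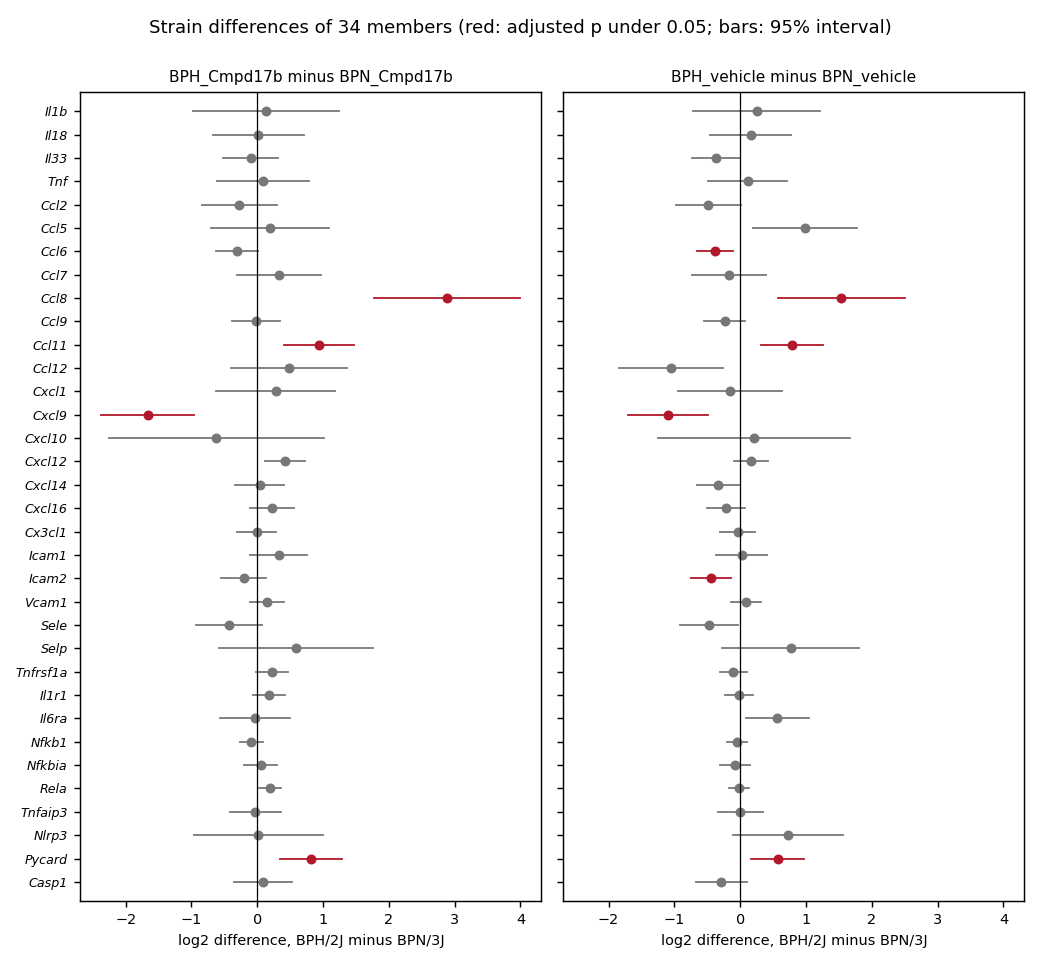
Log2 difference between BPH/2J and BPN/3J for the 34 tested genes, on Cmpd17b at left and on vehicle at right, with 95% intervals as bars and genes at an adjusted p under 0.05 in red. Ccl8, at 2.89 on Cmpd17b and 1.54 on vehicle, lies farthest to the right, and Cxcl9, at -1.66 and -1.10, farthest to the left.

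Ccl8 encodes a monocyte chemoattractant of the MCP family. Its lowest, median and highest levels were 1.85, 2.66 and 7.53 CPM in BPH_Cmpd17b, and 0.332, 1.39 and 2.53 CPM in BPH_vehicle. BPN_Cmpd17b had 0.351, 0.277, 0.335, 0.82 and 0.462 CPM, and BPN_vehicle had 0.109, 0.315 and 1.30 CPM as lowest, median and highest. All 6 BPH_Cmpd17b libraries lay above every BPN_Cmpd17b library, and 5 of 7 BPH_vehicle libraries lay above every BPN_vehicle library. The log2 difference was 2.89 ± 0.54 (SE, adjusted p = 0.000338 by edgeR) on Cmpd17b, a 7.39-fold difference, and 1.54 ± 0.47 (adjusted p = 0.0216) on vehicle, or 2.90-fold. In the batch 1 libraries alone it was 2.86 (adjusted p = 0.000512) on Cmpd17b but 1.08 (adjusted p = 0.18) on vehicle, while batch 2 alone, with 2 mice in each vehicle group, gave 3.05 (adjusted p = 0.0117). The vehicle call also ended without BPH_vehicle replicate 7 (1.31) or without BPN_vehicle replicate 1 (1.44) or 2 (1.33). With all 26 libraries it was 1.64 (adjusted p = 0.123), and with no filter on low counts 1.54 (adjusted p = 0.0523).

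Ccl11, or eotaxin, attracts eosinophils. It was at 1.51, 4.30 and 5.29 CPM (lowest, median, highest) in BPH_Cmpd17b and at 2.13, 3.28 and 4.85 CPM in BPH_vehicle. The 5 BPN_Cmpd17b libraries had 2.21, 1.32, 2.34, 2.54 and 2.11 CPM, and BPN_vehicle ran through 1.14, 1.99 and 2.46 CPM. The groups overlapped, with 5 of 6 BPH_Cmpd17b and 5 of 7 BPH_vehicle libraries above every library of the matching BPN/3J group. The log2 difference was 0.94 ± 0.26 (adjusted p = 0.0129, edgeR) on Cmpd17b and 0.78 ± 0.23 (adjusted p = 0.016) on vehicle. The low BPH_Cmpd17b library, at 1.51 CPM, was replicate 6, and without it the difference on Cmpd17b was 1.09 (adjusted p = 0.000766). In batch 1 alone the vehicle difference was 0.793 (adjusted p = 0.0186), and in batch 2 alone it was 0.761 (adjusted p = 0.238). The vehicle call ended without BPH_vehicle replicate 4 (0.663) or 7 (0.635). With all 26 libraries both calls ended, at 0.749 (adjusted p = 0.451) on Cmpd17b and 0.777 (adjusted p = 0.364) on vehicle.

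Cxcl9 encodes an interferon-gamma-induced attractant of T cells that bear the receptor CXCR3. It was at 0.247, 0.535 and 0.959 CPM (lowest, median, highest) in BPH_Cmpd17b and at 0.497, 0.919 and 1.10 CPM in BPH_vehicle. BPN_Cmpd17b had 1.67, 1.28, 1.83, 2.36 and 2.17 CPM, and BPN_vehicle ran through 0.886, 1.47 and 3.56 CPM. No BPH_Cmpd17b library reached the lowest BPN_Cmpd17b library, and 6 of 7 BPN_vehicle libraries lay above every BPH_vehicle library. The log2 difference was -1.66 ± 0.35 (adjusted p = 0.000865, edgeR) on Cmpd17b and -1.10 ± 0.30 (adjusted p = 0.00814) on vehicle. Both calls held in each of 25 fits that left out 1 library. In batch 1 alone the vehicle difference was -1.27 (adjusted p = 0.0206), and in batch 2 alone it was -0.651 (adjusted p = 0.418). With all 26 libraries the vehicle difference was -1.09 (adjusted p = 0.0558). Cxcl10, a further interferon-induced ligand of CXCR3, averaged 0.155 ± 0.140 CPM in BPH_Cmpd17b, 0.178 ± 0.157 in BPH_vehicle, 0.276 ± 0.0769 in BPN_Cmpd17b and 0.154 ± 0.220 in BPN_vehicle (SD between mice), with 0 to 20 reads per library, and did not pass the test. Without BPN_vehicle replicate 7 the BPN_vehicle mean of Cxcl10 was 0.0750 ± 0.0740 CPM, and the gene then fell under the filter on low counts.

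Ccl6, a chemokine of rodent macrophages and other myeloid cells, was at 4.76, 6.04 and 7.91 CPM (lowest, median, highest) in BPH_Cmpd17b and at 3.88, 5.64 and 6.87 CPM in BPH_vehicle. BPN_Cmpd17b had 7.82, 7.003, 7.76, 7.94 and 6.87 CPM, and BPN_vehicle ran through 4.24, 7.43 and 9.23 CPM. The groups overlapped in both comparisons, and 5 of 7 BPN_vehicle libraries lay above every BPH_vehicle library. On vehicle the log2 difference was -0.39 ± 0.13 (adjusted p = 0.0428, edgeR). On Cmpd17b it was -0.31 ± 0.15 (adjusted p = 0.208). The vehicle call ended without BPH_vehicle replicate 1, 2, 3, 4 or 5, or BPN_vehicle replicate 2, 3 or 5 (-0.405 to -0.301), and in batch 1 alone (-0.426, adjusted p = 0.0959) and batch 2 alone (-0.287, adjusted p = 0.453). It also ended with all 26 libraries (-0.385, adjusted p = 0.514), with no filter (-0.38, adjusted p = 0.0547), with no batch term (-0.384, adjusted p = 0.0617) and with only the compared groups in the fit (-0.392, adjusted p = 0.0997).

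Icam2, a constitutive endothelial ligand of leukocyte integrins, was at 13.2, 15.6 and 18.5 CPM in BPH_Cmpd17b and at 15.3, 17.2 and 19.8 CPM in BPH_vehicle (lowest, median, highest). BPN_Cmpd17b had 20.6, 18.4, 17.7, 20.6 and 17.2 CPM, and BPN_vehicle ran through 18.1, 18.3 and 47.1 CPM. The groups overlapped, and 3 of 7 BPN_vehicle libraries lay above every BPH_vehicle library. Icam2 differed on the log2 scale by -0.45 ± 0.15 on vehicle (adjusted p = 0.0309, edgeR). On Cmpd17b it was -0.20 ± 0.17 (adjusted p = 0.504). The level of 47.1 CPM was that of BPN_vehicle replicate 7, the library rich in blood endothelium markers, and the other 6 of that group had 18.1 to 26.8 CPM. Without it the vehicle difference was -0.216 (adjusted p = 0.0463), and the call ended without BPH_vehicle replicate 3, 4, 5 or 6 or BPN_vehicle replicate 3 (-0.447 to -0.426). It was -0.548 (adjusted p = 0.0463) in batch 1 alone, -0.188 (adjusted p = 0.546) in batch 2 alone and -0.439 (adjusted p = 0.285) with all 26 libraries. The call also ended with no filter (-0.44, adjusted p = 0.0582) and with only the compared groups in the fit (-0.454, adjusted p = 0.106). Of the 8 blood endothelium markers none differed between strains at an adjusted p under 0.05. Their sum had a lowest, median and highest of 487, 577 and 611 CPM in BPH_Cmpd17b, 449, 574 and 621 in BPH_vehicle, 560, 567 and 639 in BPN_Cmpd17b and 490, 587 and 1270 in BPN_vehicle, and none of the markers was at 0 throughout a group. The part of endothelial content in the Icam2 difference was not tested.

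Pycard encodes ASC, the adaptor that joins inflammasome sensors to caspase-1. It was at 1.54, 2.10 and 2.84 CPM (lowest, median, highest) in BPH_Cmpd17b and at 1.76, 2.37 and 3.54 CPM in BPH_vehicle. BPN_Cmpd17b had 1.48, 0.693, 0.761, 1.74 and 1.01 CPM, and BPN_vehicle ran through 1.31, 1.64 and 2.80 CPM. The groups overlapped, with 4 of 6 BPH_Cmpd17b and 3 of 7 BPH_vehicle libraries above every library of the matching BPN/3J group. Pycard differed on the log2 scale by 0.81 ± 0.23 (adjusted p = 0.0153, edgeR) on Cmpd17b and 0.57 ± 0.20 (adjusted p = 0.0402) on vehicle. The call on Cmpd17b ended without BPH_Cmpd17b replicate 4 (0.681) or BPN_Cmpd17b replicate 2 (0.682) or 3 (0.697). That on vehicle ended without BPH_vehicle replicate 3, 6 or 7, or BPN_vehicle replicate 2, 3, 4, 5 or 6 (0.442 to 0.589). It also ended in batch 1 alone (0.624, adjusted p = 0.0884), in batch 2 alone (0.451, adjusted p = 0.473) and with all 26 libraries (0.569, adjusted p = 0.0833), as well as with no filter (0.579, adjusted p = 0.0535) and with no batch term (0.559, adjusted p = 0.0839). The sensor Nlrp3 and the protease Casp1, with which ASC acts, did not pass the test in either comparison.

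**Figure D2:**
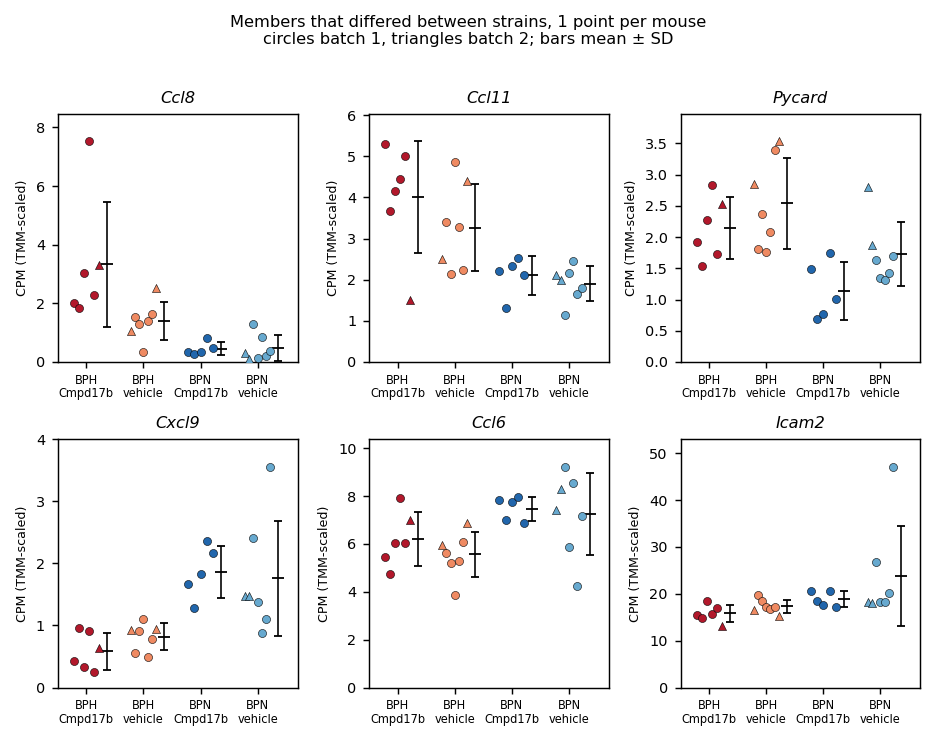
TMM-scaled CPM of the 6 genes that differed between strains, 1 point per mouse (circles batch 1, triangles batch 2), with mean and SD beside each group. For Ccl8 all 6 BPH_Cmpd17b points, at 1.85 CPM or more, lie above the BPN_Cmpd17b points, which reach 0.82 CPM, and for Icam2 a lone BPN_vehicle point stands at 47.1 CPM.

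Macrophages are a source of several of these chemokines. Of 12 macrophage markers, Lyz2 and Mrc1 were higher in BPH_vehicle than in BPN_vehicle, and Cd163 and Timd4 were lower in BPH_Cmpd17b than in BPN_Cmpd17b, at an adjusted p under 0.05, against 18.9% of all genes on vehicle and 14.1% on Cmpd17b. All 4 calls ended with all 26 libraries (adjusted p of 0.506, 0.761, 0.458 and 0.117 for Lyz2, Mrc1, Cd163 and Timd4). They also ended when a single library was left out, for 4 libraries in Lyz2, 3 in Mrc1, 3 in Cd163 and 1 in Timd4, and that of Mrc1 ended with no batch term (adjusted p = 0.0855). The 12 summed to 210, 254 and 392 CPM (lowest, median, highest) in BPH_Cmpd17b, 193, 265 and 298 in BPH_vehicle, 222, 242 and 263 in BPN_Cmpd17b and 180, 224 and 294 in BPN_vehicle, with no marker at 0 throughout a group. Of 8 tested markers of T and NK cells, the NK genes Gzma, Klrb1c and Ncr1 were higher and Cd4 was lower in BPH/2J in both comparisons, to be read beside the same shares of all genes. The Cd4 call on Cmpd17b ended without BPH_Cmpd17b replicate 4 (-0.842) or BPN_Cmpd17b replicate 1 (-0.904) or 2 (-0.916). Their list summed to only 2.26, 2.68 and 4.73 CPM in BPH_Cmpd17b, 2.18, 2.93 and 4.51 in BPH_vehicle, 2.08, 2.79 and 3.40 in BPN_Cmpd17b and 1.39, 2.28 and 3.64 in BPN_vehicle. The part of these cells in the chemokine differences was not tested.

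The promoters of Ccl8 and Cxcl9, the genes with the largest strain differences in each direction, are shown with that of Nfkbia, a standard NF-kB target that did not differ at the threshold. They are the 250 bases before the start in the reference strain, from RefSeq on build GRCm38.p6, and are not the sequences of BPH/2J or BPN/3J. Capitals mark matches, on either strand, to TATAAA or to either of a pair of NF-kB motifs, GGGNNTTCC and the same motif with 1 more free base (GGG, any 3 bases, TTCC).
Ccl8, chr11:82114935-82115184, plus strand: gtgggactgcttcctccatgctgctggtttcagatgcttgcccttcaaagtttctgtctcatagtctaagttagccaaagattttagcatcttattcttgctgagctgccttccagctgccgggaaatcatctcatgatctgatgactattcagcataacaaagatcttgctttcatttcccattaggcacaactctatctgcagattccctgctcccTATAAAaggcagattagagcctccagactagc
Cxcl9, chr5:92328080-92328329, minus strand: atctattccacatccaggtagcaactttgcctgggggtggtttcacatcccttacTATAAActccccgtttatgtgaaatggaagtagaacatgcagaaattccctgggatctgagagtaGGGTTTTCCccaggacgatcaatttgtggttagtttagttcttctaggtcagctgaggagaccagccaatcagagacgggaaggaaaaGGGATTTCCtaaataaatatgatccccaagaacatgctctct
Nfkbia, chr12:55492648-55492897, minus strand: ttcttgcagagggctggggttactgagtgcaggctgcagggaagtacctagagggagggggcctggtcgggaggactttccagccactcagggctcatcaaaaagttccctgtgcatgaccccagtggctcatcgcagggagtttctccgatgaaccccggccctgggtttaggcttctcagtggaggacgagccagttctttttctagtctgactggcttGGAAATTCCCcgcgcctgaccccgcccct
With positions counted back from -1 at the last base before the start, Ccl8 had a TATAAA from -32 to -27 and no match to either NF-kB motif in this window. Cxcl9 had GGGTTTTCC from -130 to -122, GGGATTTCC from -42 to -34 and a TATAAA from -195 to -190. Nfkbia had the match GGAAATTCCC, which reads on the opposite strand, from -29 to -20. Promoters were in the table for 31 of the 40 genes. The longer NF-kB motif was found in 9 of the 35 promoters of these 31 genes, against 4.65% of all 32851 promoters of that length, and GGGNNTTCC in 8 of the 35, against 4.98%, with some matches shared by both motifs (in Ccl9, for instance, they overlap). TATAAA was found in 13 of the 35, against 12.4%. Matches to the interferon-stimulated response element (GAAA, any 2 bases, GAAA) were found in 3 of the 35, those of Ccl19, Cxcl10 and Cxcl14, against 2.98% of promoters. These are matches of letters and not measured binding.

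Ccl2, Ccl7, Ccl11, Ccl12 and Ccl8 follow each other on chromosome 11 with no other protein-coding gene between them in RefSeq. Ccl2 encodes MCP-1, the main attractant of CCR2-bearing monocytes, and its lowest, median and highest levels were 1.00, 1.08 and 3.09 CPM in BPH_Cmpd17b and 0.472, 1.04 and 1.82 CPM in BPH_vehicle. BPN_Cmpd17b had 1.56, 1.11, 1.77, 1.46 and 1.41 CPM, and BPN_vehicle ran through 0.886, 1.38 and 2.39 CPM. The groups overlapped, and the log2 difference was -0.27 (95% interval -0.838 to 0.295) on Cmpd17b and -0.48 (-0.982 to 0.0154) on vehicle. The 3.09 CPM was that of BPH_Cmpd17b replicate 6, without which the group mean was 1.11 ± 0.15 CPM, against 1.44 ± 0.82 with it (SD). Ccl7 encodes MCP-3 and averaged 1.75 ± 0.53 CPM in BPH_Cmpd17b, 1.40 ± 0.78 in BPH_vehicle, 1.37 ± 0.29 in BPN_Cmpd17b and 1.56 ± 0.46 in BPN_vehicle. Ccl12, the MCP-5 of the mouse, averaged 1.20 ± 0.91 CPM in BPH_Cmpd17b, 0.614 ± 0.301 in BPH_vehicle, 0.773 ± 0.343 in BPN_Cmpd17b and 1.20 ± 0.60 in BPN_vehicle. On vehicle its log2 difference was -1.06 ± 0.39 (adjusted p = 0.054, edgeR), opposite in sign to that of its neighbours Ccl11 and Ccl8. In batch 1 alone it was -1.42 and passed (adjusted p = 0.0361), as it did under DESeq2 (-1.07, adjusted p = 0.0277), while batch 2 alone gave -0.105 (adjusted p = 0.934). It also passed without BPH_Cmpd17b replicate 4 or 5, BPH_vehicle replicate 7, BPN_Cmpd17b replicate 1 or BPN_vehicle replicate 2 or 6 (-1.25 to -1.05).

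Within groups, some of these neighbours varied together from mouse to mouse. Each library's log2 CPM was expressed as its deviation from the level fitted by a linear model with additive terms for group and batch. The 10 pairs were correlated over 25 libraries. Ccl12 and Ccl8 had Pearson's r = 0.606 (permutation p = 0.00151, adjusted over the 10 pairs 0.0151) and Spearman's rho = 0.602 (permutation p = 0.00162, adjusted 0.0108). Without the 2 libraries farthest from the median of Ccl12, r was 0.458, and in the 20 batch 1 libraries it was 0.521. Ccl7 and Ccl12 had r = 0.529 (permutation p = 0.00676, adjusted 0.0338) and rho = 0.596 (permutation p = 0.00217, adjusted 0.0108). For this pair r was 0.572 without the 2 libraries farthest from the median of Ccl7, and 0.476 in batch 1. Ccl7 and Ccl8 had r = 0.482 (permutation p = 0.0146, adjusted 0.0485) and rho = 0.477 (permutation p = 0.0172, adjusted 0.0573). Here r was 0.488 without the 2 libraries farthest from the median of Ccl7, and 0.373 in batch 1. The other 7 pairs did not pass, with Ccl2 and Ccl7 at r = 0.00304 and Ccl11 and Ccl8 at r = -0.184. Batch 2 held 5 libraries, too few for a correlation of its own. The points share library depth and tissue composition, whose part was not tested.

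**Figure D3:**
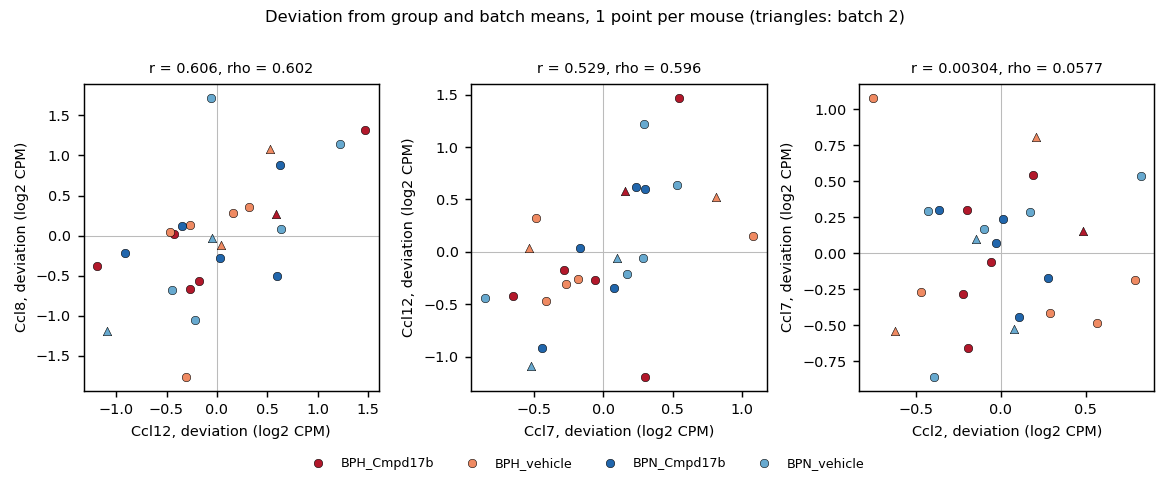
Deviation of log2 CPM from the level fitted by additive terms for group and batch, for 3 pairs of neighbouring chemokine genes. There is 1 point per mouse (25 mice), coloured by group, with triangles for batch 2. The points of Ccl12 and Ccl8 run upward (r = 0.606) and so do those of Ccl7 and Ccl12 (r = 0.529), while those of Ccl2 and Ccl7 are scattered (r = 0.00304).

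Ccl5, Ccl9, Ccl6, Ccl3 and Ccl4 form a further run of neighbours on chromosome 11. Ccl5, or RANTES, an attractant of T cells, averaged 0.371 ± 0.132 CPM in BPH_Cmpd17b, 0.467 ± 0.205 in BPH_vehicle, 0.317 ± 0.233 in BPN_Cmpd17b and 0.234 ± 0.108 in BPN_vehicle. Its log2 difference on vehicle, 0.98 ± 0.38, did not pass (adjusted p = 0.0752, edgeR), but it did without BPH_vehicle replicate 1 (1.13), BPN_Cmpd17b replicate 4 (0.981) or BPN_vehicle replicate 3 (1.21). Ccl9, a rodent macrophage chemokine, averaged 4.36 ± 1.495 CPM in BPH_Cmpd17b, 3.73 ± 0.81 in BPH_vehicle, 4.06 ± 0.96 in BPN_Cmpd17b and 4.34 ± 0.86 in BPN_vehicle, with no call. Ccl3 and Ccl4, the MIP-1 chemokines, had 0 to 13 and 0 to 9 reads per library and were too low to be tested. Of this run, Ccl6 was the member that differed on vehicle.

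The classical proinflammatory cytokines were low in every group. Il1b was at 0, 0.625 and 1.72 CPM (lowest, median, highest) in BPH_Cmpd17b and at 0.482, 0.653 and 0.842 CPM in BPH_vehicle. BPN_Cmpd17b had 1.08, 0.485, 0.578, 0.769 and 0.202 CPM of Il1b, and BPN_vehicle ran through 0.126, 0.596 and 0.812 CPM. The groups overlapped, and the highest value was that of BPH_Cmpd17b replicate 6. Without that library the BPH_Cmpd17b mean of Il1b was 0.571 ± 0.437 CPM, against 0.762 ± 0.610 with it (SD). The log2 difference of Il1b was 0.13 (95% interval -0.974 to 1.24) on Cmpd17b and 0.25 (-0.715 to 1.21) on vehicle.

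Tnf was at 0.986, 1.09 and 1.40 CPM in BPH_Cmpd17b and at 0.639, 1.14 and 1.89 CPM in BPH_vehicle (lowest, median, highest). BPN_Cmpd17b had 1.05, 0.763, 1.25, 1.31 and 1.16 CPM, and BPN_vehicle ran through 0.558, 0.825 and 2.77 CPM, the last in replicate 7. The groups overlapped, with log2 differences of 0.08 (-0.613 to 0.782) on Cmpd17b and 0.11 (-0.49 to 0.718) on vehicle. Il6 was too low to be tested. Its reads numbered 0, 2, 1, 2, 1 and 19 in the 6 BPH_Cmpd17b libraries, 24 in all in BPH_vehicle, where 3 of 7 libraries had none, 2, 0, 0, 0 and 1 in BPN_Cmpd17b, and 3 in all in BPN_vehicle, where 6 of 7 had none. The 19 reads were those of BPH_Cmpd17b replicate 6. Without that library the BPH_Cmpd17b mean of Il6 was 0.0359 ± 0.0258 CPM, against 0.122 ± 0.212 with it (SD). In a fit with no filter the strain difference of Il6 did not pass on Cmpd17b (adjusted p = 0.498, edgeR) or on vehicle (adjusted p = 0.153). The alarmin Il33 averaged 2.26 ± 0.63 CPM in BPH_Cmpd17b, 2.14 ± 0.51 in BPH_vehicle, 2.35 ± 0.50 in BPN_Cmpd17b and 2.78 ± 0.57 in BPN_vehicle, and the inflammasome product Il18 averaged between 0.589 CPM in BPN_vehicle and 0.761 CPM in BPH_Cmpd17b. Neither passed in any comparison, although Il33 passed on vehicle without BPH_vehicle replicate 6 (-0.508).

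Per length of transcript, the chemokine at the highest level was Cxcl12, the constitutive stromal ligand of CXCR4. It averaged 21.1 CPM per kilobase of exon over the 25 libraries, against 14.1 for Nfkbia and 12.7 for the TNF receptor Tnfrsf1a, whereas Il6 and Cxcl2 were at 0.0258 and 0.0248. Cxcl12 was at 193 ± 14 CPM in BPH_Cmpd17b, 180 ± 21 in BPH_vehicle, 150 ± 8 in BPN_Cmpd17b and 163 ± 60 in BPN_vehicle (SD). It did not pass between strains on Cmpd17b (0.42 ± 0.15, adjusted p = 0.0552, edgeR) or on vehicle (0.16 ± 0.13, adjusted p = 0.418). All 6 BPH_Cmpd17b libraries, at 174.8 to 212.6 CPM, nevertheless lay above every BPN_Cmpd17b library, at 142.1 to 163 CPM. No BPH_vehicle library lay above every BPN_vehicle library. BPN_vehicle replicate 7 was at 292 CPM and the other 6 of that group at 108 to 170 CPM. Without that library Cxcl12 was higher in BPH/2J in both comparisons, by 0.401 on Cmpd17b (adjusted p = 0.000464) and 0.348 on vehicle (adjusted p = 0.000639). On Cmpd17b it also passed without BPH_vehicle replicate 1 (0.441), under DESeq2 (0.412, adjusted p = 0.0327) and with only the compared groups in the fit. The platelet and endothelial selectin Selp also passed on vehicle without BPN_vehicle replicate 7 (1.35, adjusted p = 0.0435), against 0.76 ± 0.51 (adjusted p = 0.332) with it, so the count of genes that differed without that library was 5 of 33 on Cmpd17b, against 20.1% of all genes in that fit, and 8 of 33 on vehicle, against 24.2%. Of the remaining CXC and CX3C chemokines, Cxcl1, Cxcl14, Cxcl16 and Cx3cl1 did not pass in the fit of all 25 libraries. Cxcl1, a neutrophil attractant, averaged 0.959 to 1.22 CPM across groups, and the broadly expressed Cxcl14 averaged 14.0 to 17.7 CPM and passed on vehicle without BPH_vehicle replicate 6 (-0.461). The transmembrane chemokines Cxcl16 and Cx3cl1 averaged 6.22 to 7.56 and 9.12 to 10.7 CPM.

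Cxcl2, Cxcl13 and Ccl19 were also too low to be tested in the fit of all 25 libraries. Cxcl13, the B cell attractant, had 0 to 21 reads per library in BPH_Cmpd17b (31 in all), 0 to 20 in BPH_vehicle (51 in all), 3 in all in BPN_Cmpd17b and 1 in all in BPN_vehicle. In BPH_vehicle 3 of 7 libraries had none, so the groups overlapped. Each fit that left out a BPN_Cmpd17b library tested Cxcl13, which then passed on vehicle and not on Cmpd17b. In the fit with no filter Cxcl13 passed on vehicle (adjusted p = 0.00537, edgeR) and not on Cmpd17b (adjusted p = 0.105). Ccl19, a ligand of CCR7, had no reads in the 6 BPH_Cmpd17b libraries, 5 in BPH_vehicle, 10 in BPN_Cmpd17b and 28 in BPN_vehicle, and did not pass in that fit (adjusted p = 0.0967 on Cmpd17b and 0.159 on vehicle). The mouse genome holds near-identical copies of Ccl19, so its reads are uncertain. Cxcl2 had 0 to 6 reads per library.

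Icam1, the inducible endothelial ligand of leukocyte integrins, was at 10.1, 11.4 and 16.7 CPM (lowest, median, highest) in BPH_Cmpd17b and at 7.46, 10.03 and 16.4 CPM in BPH_vehicle. BPN_Cmpd17b had 11.6, 9.498, 10.1, 10.5 and 9.35 CPM, and BPN_vehicle ran through 6.15, 9.87 and 18.8 CPM. The groups overlapped, with log2 differences of 0.32 (95% interval -0.117 to 0.761) on Cmpd17b and 0.02 (-0.363 to 0.407) on vehicle. Vcam1, the ligand of the integrin VLA-4, was at 9.92, 12.8 and 16.4 CPM in BPH_Cmpd17b and at 10.5, 12.2 and 15.0 CPM in BPH_vehicle. BPN_Cmpd17b had 12.4, 9.78, 12.3, 12.5 and 10.9 CPM, and BPN_vehicle ran through 10.2, 11.3 and 15.2 CPM. These groups overlapped as well, with log2 differences of 0.14 (-0.115 to 0.399) on Cmpd17b and 0.09 (-0.135 to 0.313) on vehicle, intervals that leave out a strain difference of 1 on the log2 scale in either direction. The endothelial selectin Sele averaged 2.02 ± 0.62 CPM in BPH_Cmpd17b, 1.81 ± 0.49 in BPH_vehicle, 2.62 ± 0.78 in BPN_Cmpd17b and 2.52 ± 0.67 in BPN_vehicle, and did not pass.

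None of the receptor and NF-kB genes passed the test between strains. Nfkbia, the inhibitor that holds NF-kB in the cytoplasm and is itself induced by it, was at 18.9, 21.6 and 25.5 CPM (lowest, median, highest) in BPH_Cmpd17b and at 18.5, 23.2 and 28.0 CPM in BPH_vehicle. BPN_Cmpd17b had 22.4, 20.7, 19.4, 21.3 and 19.2 CPM, and BPN_vehicle ran through 18.7, 23.2 and 33.8 CPM. The log2 difference was 0.05 (95% interval -0.205 to 0.307) on Cmpd17b and -0.08 (-0.302 to 0.145) on vehicle. The subunit genes Nfkb1 and Rela averaged 31.0 to 32.7 and 26.4 to 29.4 CPM across groups, and the feedback inhibitor Tnfaip3 averaged 4.09 to 4.59 CPM. None of the 4 passed, and their log2 differences ran from -0.08947 to 0.1932 on Cmpd17b and from -0.07846 to 0.001677 on vehicle. The receptors Tnfrsf1a, Il1r1 and Il6ra averaged 30.7 to 34.9, 13.5 to 15.2 and 1.24 to 1.80 CPM, with no call, although Il6ra passed on vehicle without BPH_vehicle replicate 7 (0.671). Nlrp3, the inflammasome sensor, was at 0.172, 0.241 and 0.728 CPM in BPH_Cmpd17b and at 0.179, 0.387 and 0.735 CPM in BPH_vehicle. BPN_Cmpd17b had 0.270, 0.277, 0.152, 0.641 and 0.375 CPM, and BPN_vehicle ran through 0.104, 0.247 and 0.398 CPM. At 4 to 28 reads per library its log2 differences were 0.01 (-0.964 to 0.993) on Cmpd17b and 0.72 (-0.117 to 1.56) on vehicle. Casp1 averaged 2.02 to 2.48 CPM across groups.

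**Figure D4:**
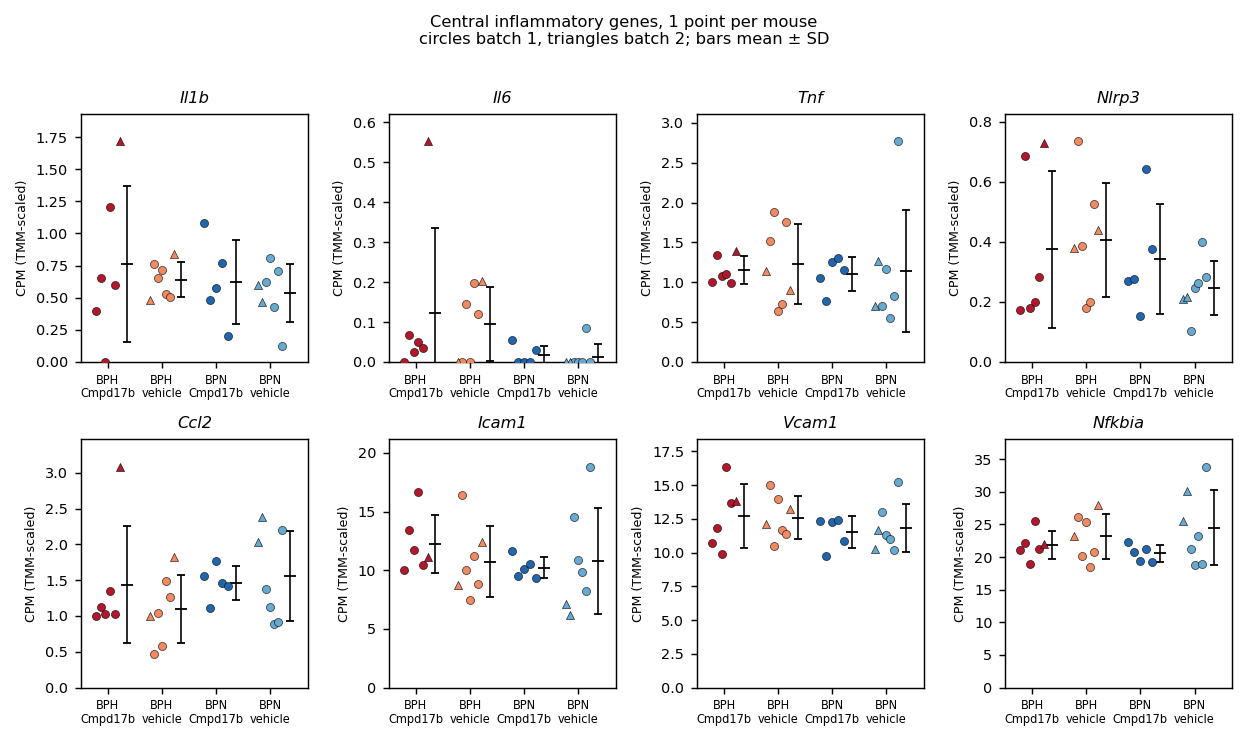
TMM-scaled CPM of 8 central inflammatory genes, 1 point per mouse (circles batch 1, triangles batch 2), with mean and SD beside each group. The groups overlap in every panel, and the highest Il1b, Il6 and Ccl2 points, at 1.72, 0.553 and 3.09 CPM, are all BPH_Cmpd17b replicate 6.

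No gene of the 34 differed between Cmpd17b and vehicle in either strain, and 0% of all genes tested did so at an adjusted p under 0.05 by edgeR. Without adjustment, 2 of the 34 had p under 0.05 in BPH/2J, against 1.85% of all genes, and 2 in BPN/3J, against 9.69%. DESeq2 also called none of the 34. The median log2 difference of the 34, Cmpd17b minus vehicle, was 0.0716 in BPH/2J, against 0.00201 over all genes, and -0.0578 in BPN/3J, against -0.0119. A p that misses the threshold does not show that the drug had no effect on these genes, and the intervals below give the sizes that remain possible.

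In BPH/2J the largest drug difference was that of Ccl8, whose levels in each group are given above. It averaged 3.34 ± 2.13 CPM in BPH_Cmpd17b and 1.40 ± 0.66 CPM in BPH_vehicle (SD), a log2 difference of 1.24 (95% interval 0.338 to 2.15, adjusted p = 1 by edgeR). Without BPH_Cmpd17b replicate 4, the library at 7.53 CPM, it was 0.841. Ccl12 followed, at 1.06 (0.253 to 1.88, adjusted p = 1). Its 6 BPH_Cmpd17b libraries had 0.772, 0.720, 0.641, 2.54, 0.352 and 2.15 CPM, against 0.338, 0.551 and 1.18 CPM (lowest, median, highest) in BPH_vehicle. Replicates 4 and 6 were thus the high ones, and the other 4 lay within the range of BPH_vehicle. Without replicate 4 the Ccl12 difference was 0.607. Without replicate 6 the BPH_Cmpd17b mean of Ccl12 was 1.00 ± 0.87 CPM, against 1.20 ± 0.91 with it (SD). By role, the median log2 drug difference in BPH/2J was 0.314 over the 8 tested CC chemokines and 0.133 over the 4 cytokines. It was 0.0578 over the 7 CXC and CX3C chemokines, 0.0172 over the 5 adhesion molecules and 0.0682 over the 3 receptors. Over the 4 NF-kB genes it was 0.043 and over the 3 inflammasome genes -0.145, and no role held a call. For Nfkbia the interval was -0.296 to 0.173 and for Vcam1 -0.216 to 0.25, whereas for Il1b it was -0.754 to 1.21 and for Tnf -0.736 to 0.517.

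In BPN/3J the 2 genes with an unadjusted p under 0.05 were Icam2, at -0.42 (95% interval -0.756 to -0.0784, adjusted p = 0.514 by edgeR), and the IL-6 receptor gene Il6ra, at 0.57 (0.0406 to 1.11, adjusted p = 0.514). Both compare BPN_Cmpd17b with a group that holds BPN_vehicle replicate 7, whose Icam2 was the highest and whose Il6ra, at 0.283 CPM, was the lowest of the group. Without that library the Icam2 difference was -0.15 and that of Il6ra was 0.379. Cxcl9 was 1.86 ± 0.42 CPM in BPN_Cmpd17b and 1.76 ± 0.93 in BPN_vehicle, and Ccl8 was 0.449 ± 0.218 CPM in BPN_Cmpd17b and 0.471 ± 0.443 in BPN_vehicle. All 5 BPN_Cmpd17b libraries were in batch 1, so the batch term for that group was taken from the others.

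The drug difference did not differ between strains for any of the 34 genes at the threshold, and 0% of all genes passed. Of the 34, 2 had an unadjusted p under 0.05, against 3.83% of all genes. The largest was Ccl12, whose drug difference was 1.06 in BPH/2J and -0.48 in BPN/3J, a difference of 1.54 ± 0.57 (adjusted p = 0.917 by edgeR). The other was Tnfrsf1a, at 0.32 (95% interval 0.00509 to 0.644, adjusted p = 0.917), and at 0.193 without BPN_vehicle replicate 7. For Ccl8 the strain differences on Cmpd17b and on vehicle, 2.89 and 1.54, are therefore not shown to differ from each other.

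**Figure D5:**
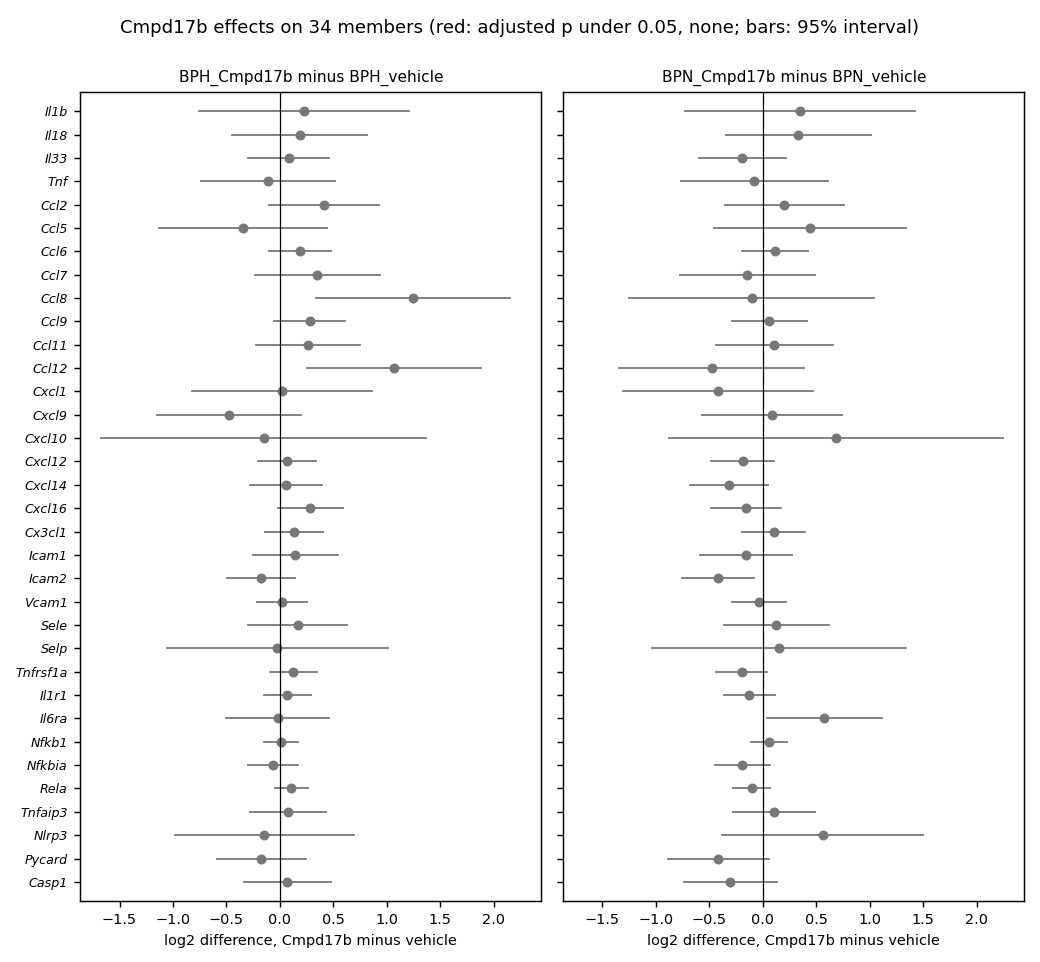
Log2 difference between Cmpd17b and vehicle for the 34 tested genes, in BPH/2J at left and BPN/3J at right, with 95% intervals as bars and no gene at an adjusted p under 0.05. Ccl8 and Ccl12 lie farthest to the right in BPH/2J, at 1.24 and 1.06, while Ccl12 lies at -0.48 in BPN/3J.

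Related genes outside the 40 were read from 4 lists. Of 17 tested cytokine and chemokine receptors, 1 was higher and 1 lower in BPH/2J on Cmpd17b, and 3 were higher and 2 lower on vehicle, where these and the following counts stand beside 14.1% of all genes on Cmpd17b and 18.9% on vehicle. Ackr3, an atypical receptor that scavenges Cxcl12, averaged 51.0 ± 5.4 CPM in BPH_Cmpd17b, 50.6 ± 7.1 in BPH_vehicle, 69.3 ± 3.2 in BPN_Cmpd17b and 76.9 ± 17.7 in BPN_vehicle. It was lower in BPH/2J, at -0.50 (adjusted p = 0.00119, edgeR) on Cmpd17b and -0.59 (adjusted p = 1.9e-05) on vehicle. The interleukin receptor chains Il18rap (1.31, adjusted p = 0.0227) and Il1rap (0.47, adjusted p = 0.024) were higher on vehicle. Of 25 tested NF-kB and inflammasome genes, the A20-binding inhibitor Tnip1 was higher in BPH/2J on Cmpd17b (0.48, adjusted p = 0.000473) and on vehicle (0.38, adjusted p = 0.000982), and the kinase gene Irak4 (-0.49, adjusted p = 0.0187) and the DNA sensor Aim2 (-0.57, adjusted p = 0.0252) were lower on vehicle. The calls of Ackr3, Tnip1 and Irak4 held in each fit that left out 1 library. That of Il18rap ended without BPH_vehicle replicate 2 or 4 or BPN_vehicle replicate 2 or 6 (1.12 to 1.19). The Il1rap call ended without BPH_vehicle replicate 6 or BPN_vehicle replicate 3, 4 or 5 (0.403 to 0.436). The Aim2 call ended without BPH_vehicle replicate 4 (-0.511) or BPN_vehicle replicate 7 (-0.331). In batch 1 alone the calls of Il18rap (adjusted p = 0.0842, edgeR) and Il1rap (0.0554) ended. With only the compared groups in the fit, those of Il1rap (0.0613) and Aim2 (0.0604) ended.

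Of 7 tested further chemokines, Ccl28, a mucosal chemokine, averaged 0.0242 ± 0.0466 CPM in BPH_Cmpd17b, 0.0433 ± 0.0503 in BPH_vehicle, 0.587 ± 0.162 in BPN_Cmpd17b and 0.619 ± 0.216 in BPN_vehicle. It was lower in BPH/2J on Cmpd17b (-4.43, adjusted p = 1.61e-05, edgeR) and on vehicle (-3.58, adjusted p = 8.7e-06), the BPH/2J levels lying at or under that of 3 counts. Ccl27a was also lower, at -0.75 and -0.66, and Ccl21a was higher on Cmpd17b, at 1.35 (adjusted p = 0.0161), but both have near-identical copies in the mouse genome and their reads are uncertain. Of 19 tested partners in leukocyte adhesion, the junction molecule F11r and the matrix proteoglycan Vcan were higher in BPH/2J in both comparisons, at 0.29 and 0.70 on Cmpd17b and 0.20 and 0.64 on vehicle, while the hyaluronan receptor Cd44 was lower on vehicle (-0.60, adjusted p = 0.0348). Leaving out 1 library ended the vehicle call of F11r for 9 libraries (0.171 to 0.2) and of Cd44 for 10 (-0.596 to -0.484). The Cmpd17b call of Vcan ended without BPN_Cmpd17b replicate 2, 3, 4 or 5 (0.678 to 0.697) and with no filter (adjusted p = 0.0805, edgeR). On vehicle the F11r call also ended with no filter (adjusted p = 0.075), with no batch term (0.0766) and in batch 1 alone (0.26). That of Cd44 ended with no filter (0.0741) and with no batch term (0.0884), and that of Vcan with no batch term (0.141). With all 26 libraries the calls of Tnip1 (0.391, adjusted p = 0.145 on Cmpd17b, and 0.38, adjusted p = 0.0859 on vehicle), Ccl28 and Vcan in both comparisons, Ccl21a on Cmpd17b (1.2, adjusted p = 0.103), and Il1rap (adjusted p = 0.0545), Aim2 (0.323), F11r (0.103) and Cd44 (0.284) on vehicle ended. No gene of these 4 lists differed between Cmpd17b and vehicle in either strain.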

How the data were processed

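Left ventricle RNA (Aurum kit) was made into VAHTS Universal V8 libraries for paired-end sequencing, per the labels' protocols. The submitters' processing notes name Trim Galore 0.6.7, STAR 2.7.9a and the build GRCm39 (mm39). How reads were counted, with which annotation and whether by strand is not given in the sources used here, which leaves overlapping and near-identical genes uncertain. The authors deposited expected counts for each gene. Of them 93.3% were whole and 2.21% were off a whole number by over 0.01, and all were rounded. Each title carries its own animal identifier, hence 1 mouse per library, and replicates were numbered in sample order. No 2 libraries of a group were identical.

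Genes were kept by filterByExpr, counts were TMM-scaled, and edgeR 4.0.16 (R 4.3.3) was fitted to 25 libraries with a coefficient per group and a batch term (robust quasi-likelihood F-test, Benjamini-Hochberg threshold 0.05). The procedure was also run on simulated counts. These held no batch effect and no library of deviating composition, so that run cannot speak to either. The labels put 20 of these libraries in batch 1 and 5 in batch 2. The number of mice limits precision, and intervals are at 95%. Correlations used log2 CPM with a prior count of 2 and 100000 permutations, which do not allow for the group and batch terms removed. Levels per kilobase used the exon union of GENCODE M21, whose build differs from that of the counts. Alternatives were all 26 libraries, RLE size factors, DESeq2 1.42.0, other filters, no batch term, each batch alone, the compared groups alone and each library left out. Levels within each group are given for genes with an adjusted p under 0.05 in any comparison and for Il1b, Il6, Tnf, Ccl2, Icam1, Vcam1, Nlrp3 and Nfkbia. They are the value of each library in BPN_Cmpd17b and the lowest, median and highest in the larger groups, with reads for Il6. From related lists up to 4 genes with the smallest p are named, with any others named here chosen after their values were seen, and some genes of these lists are not reported here. The members, lists and motifs were chosen with earlier results of these data known.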

Additional observations from a re-analysis of the deposited data

Results flagged for a closer look

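Dixon's criterion at 95% was applied to 136 pairs of gene and group, in groups of 5 to 7 libraries. In 19 pairs the highest or lowest library was set apart from the rest. The usual rate of about 1 in 20 assumes normally distributed and independent values. CPM at low counts, and pairs that share libraries, need not meet this, so the 19 cannot be weighed against that rate. Of the 19, 10 were high values of BPN_vehicle replicate 7, which had 2.769 CPM of Tnf, 2.738 of Cxcl1, 0.6294 of Cxcl10, 291.7 of Cxcl12, 24.55 of Cxcl14, 11.55 of Cxcl16, 47.11 of Icam2, 0.6609 of Selp, 51.49 of Tnfrsf1a and 37.42 of Nfkb1. This library also had 1270 CPM of blood endothelium markers and 1030 CPM of mural cell markers, above the 639 and 832 CPM of the next library, and the part of these cells in the 10 values was not tested. BPH_Cmpd17b replicate 6 was set apart by 3.085 CPM of Ccl2 and 11.58 CPM of Cxcl16, and BPH_Cmpd17b replicate 4 by 7.529 CPM of Ccl8 and 0.7529 CPM of Selp. The other 5 values were 7.398 CPM of Cxcl16 in BPH_vehicle replicate 2, 0.7175 CPM of Ccl5 in BPN_Cmpd17b replicate 4, a low 22.49 CPM of Rela in BPN_Cmpd17b replicate 5, a low 2.561 CPM of Ccl9 in BPN_vehicle replicate 6 and 2.803 CPM of Pycard in BPN_vehicle replicate 1.

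The kidney-like library, which entered no comparison, lay above the highest of the other 25 libraries in 4 of the 40 genes and below the lowest in 20. Scaled with all 26 libraries, it had 1.52 CPM of Il18, 0.517 CPM of Ccl19, 23.3 CPM of Cxcl16 and 25.6 CPM of Cx3cl1, where the highest of the others were 1.05, 0.32, 11.7 and 12.9 CPM.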

How the results depend on the processing

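The count of 6 genes that differed between strains on vehicle was 0 with all 26 libraries. With no filter on low counts it was 3 (Ccl11, Cxcl9 and Cxcl13, which was untested in the main fit). In batch 2 alone, where 2 mice stand against 2 and 7.1% of all genes differed, it was 1. When 1 library was left out it ran from 3 to 8, where 16.8% to 24.2% of all genes differed, with 3 without BPH_vehicle replicate 3 or 4. The count was 8 without BPN_vehicle replicate 7 and also without BPN_Cmpd17b replicate 1 or 4. BPN_Cmpd17b libraries share the fit but are not in that comparison. With no batch term the count was 4 (Ccl6 and Pycard lost), against 16.4% of all genes. With only the compared groups in the fit it was 5 of 31 (Ccl6 and Icam2 lost, Ccl12 gained), against 15.3%. The cause of these changes was not tested. Over all genes the share that differed on vehicle was 9.59% with all 26 libraries and 10.3% with no filter, against 18.9%. The count of 4 on Cmpd17b ran from 3 to 5 when 1 library was left out, where 11.7% to 20.1% of all genes differed. It was 3 with all 26 libraries, against 7.68% of all genes, and 5 under DESeq2, against 16%. The counts of 0 for the drug comparisons and their difference between strains held under each alternative that could be fitted, and no gene with a call changed direction. Among values of single genes under alternatives, 5516 kept their side of the threshold, 52 lost a call and 21 gained one. Neither RLE size factors nor DESeq2 moved the median of all genes by over 0.1 on the log2 scale. No paired analysis was possible because the labels carry no replicate numbers shared between groups. Depth limits Il6, Ccl3, Ccl4, Ccl19, Cxcl2 and Cxcl13, which had at most 21 reads in a library.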
